A study of Mus musculus with 6 samples.

Results

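Deoxynucleotide synthesis enzymes make the 4 building blocks of DNA and keep their pools in balance. 9 of their genes were examined in macrophages sorted from Day 3 skin wounds of young and aged mice. They were taken from the count table by symbol, as Rrm1, Rrm2, Rrm2b, Tyms, Tk1, Dut, Dck, Samhd1 and Dctpp1. All 9 are among the 15168 genes of that table, and all 9 passed the filter on low counts together with 11878 genes in all. RNA-sequencing was performed on 3 samples from young mice (12 weeks) and 3 from aged mice (24 months). The mice were female, wild-type and of the C57BL/6J strain, and each carried 2 full-thickness wounds of 10 mm on the back. All mice were wounded, and neither a transgene nor a treatment distinguished the groups, so age was the only labelled difference. Cells were sorted as CD45+, CD11b+, F4/80+ and CD64+, with no gate against Ly6G+ neutrophils. The samples carry the set letters A, B and C in each group, and nothing in the labels states how many mice a sample holds, so p-values measure the spread between these samples only.

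Ribonucleotide reductase converts ribonucleoside diphosphates into deoxyribonucleoside diphosphates and is the rate-limiting source of new DNA precursors. Its large subunit, Rrm1, pairs with Rrm2 in cells that replicate their DNA, or with Rrm2b, a p53-induced small subunit that supplies precursors outside S phase. Thymidylate is made from dUMP by Tyms or salvaged from thymidine by Tk1, whereas Dut removes dUTP, Dck salvages deoxycytidine and purine deoxynucleosides, Dctpp1 clears dCTP and its modified forms, and Samhd1 breaks down dNTPs. In macrophages Samhd1 is known for holding dNTP pools low and thereby limiting retroviral reverse transcription.

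Aged Day 3 wound macrophages held less RNA of 5 of the 9 enzymes: Tk1, Dut, Dctpp1, Tyms and Rrm1 fell 4.23-fold, 3.55-fold, 3.13-fold, 2.42-fold and 2.17-fold (edgeR quasi-likelihood test, Benjamini-Hochberg adjusted p under 0.05). Of all genes tested, 7.97% were called lower in aged macrophages, and 4.2% were called lower by more than 2-fold, as all 5 of these were. Rrm2b was the single member called higher, at 1.91-fold, against a background of 9.73% of all genes called higher and 4.59% called higher by more than 2-fold. The 6 called members of 9 stand beside 17.7% of all genes called in either direction. Rrm2, Dck and Samhd1 did not pass. The median log2 fold change of the 9 members was -1.21, against -0.02 over all genes tested. In 6 members every aged sample lay below every young sample, which held for 19.0% of all genes, and in 1 member every aged sample lay above, which held for 19.2%. In bulk samples a smaller share of cells that express a gene and less of its RNA per cell cannot be told apart.

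The number of calls fell most when young C was left out, while the median log2 fold change of the members was then -1.20. With young C left out, 218 genes were called in place of 2103, and 0 members passed edgeR's test, while 7 were lower and 1 higher at an unadjusted p under 0.05. DESeq2 and limma-voom on all 6 samples each called 7 lower and 1 higher. Their background was larger: DESeq2 called 9.16% of all genes lower and 12.4% higher, and limma-voom 14.4% lower and 16.3% higher.

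**Figure D1:**
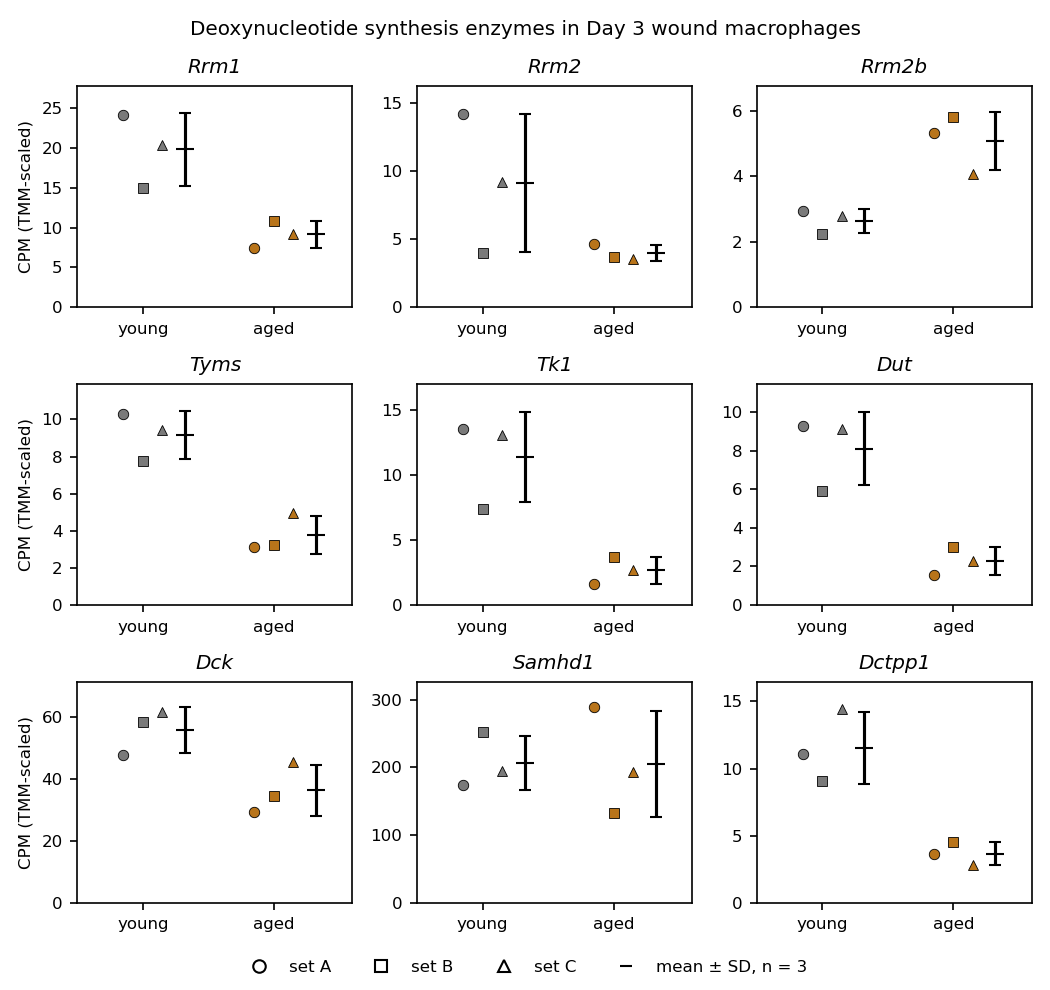
Level of each enzyme in each sample, in CPM (counts scaled to a common library size, with trimmed-mean scaling factors, TMM), on linear axes that start at 0. Symbols mark the set letter, and the bar beside the points is the mean ± SD of 3 samples. Young and aged samples separate in 7 panels, and overlap for Rrm2 and Samhd1.

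Rrm1 encodes the large subunit, which carries the catalytic site and both allosteric sites. The gene lies on chr7:102441695-102469771 (mm10, plus strand). Its level was 24.1, 15.0 and 20.4 CPM in young A, B and C and 7.43, 10.8 and 9.20 CPM in aged A, B and C. The groups did not overlap, and the highest aged sample lay below the lowest young one. The mean fell from 19.8 ± 4.58 to 9.15 ± 1.70 CPM (SD, n = 3 each), a log2 fold change of -1.12 (SE 0.24, edgeR quasi-likelihood adjusted p = 0.0152). The call was lost without young C (adjusted p = 0.0762) and without aged C (adjusted p = 0.0589).

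Rrm2, the S-phase small subunit that holds the tyrosyl radical, lies on chr12:24708241-24714146 (plus strand). Its level was 14.2, 3.99 and 9.18 CPM in young A, B and C and 4.62, 3.69 and 3.52 CPM in the aged samples. Young B fell among the aged samples, below aged A, while young A and young C stood above all 3. The young values had a coefficient of variation of 55.8%, where counting error alone would give 8.05%. The aged samples differed by 15.0%, close to the 12.9% of counting error. The log2 fold change of -1.21 (SE 0.40) did not pass edgeR's test (adjusted p = 0.0613). Without young B it was -1.56 (adjusted p = 0.0247), and DESeq2 and limma-voom on all 6 samples gave adjusted p = 0.0256 and 0.0338. Without young A it was -0.73 (edgeR adjusted p = 0.187), and 5 of the 6 fits that left out a sample and 5 of 7 other settings did not call it.

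Rrm2b, the alternative small subunit, had the lowest mean per length of the 9 genes in both groups. In aged A and aged B, however, Tyms was lower per length. Rrm2b lies on chr15:37923952-37961318 (minus strand). Its level was 2.93, 2.23 and 2.77 CPM in the young samples and 5.32, 5.80 and 4.08 CPM in the aged samples. Every aged sample lay above every young sample. These values rest on 38 to 53 counts in young and 66 to 91 counts in aged samples, and the young spread of 13.9% is no larger than the 15.0% of counting error. Young samples averaged 2.65 ± 0.369 and aged samples 5.07 ± 0.888 CPM (SD, n = 3 each), a log2 fold change of 0.93 (SE 0.29, edgeR adjusted p = 0.0493). The call sat at the threshold: it was lost whenever any of the 6 samples was left out, where edgeR's adjusted p ranged from 0.0554 to 0.136. A pseudogene inside the locus (Gm3362), an antisense gene (Gm49085) and a processed pseudogene with 96.1% identity to its coding sequence (Gm8616) had at most 18.2, 6.6 and 7 counts. With their counts added to Rrm2b the log2 fold change was 0.64 (edgeR adjusted p = 0.174).

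Because Rrm2 and Rrm2b compete for the same large subunit, their ratio was computed within each sample from counts per kb of transcript, which removes the library scaling. Rrm2 exceeded Rrm2b by 9.97-fold, 3.70-fold and 6.83-fold in young A, B and C, and by 1.81-fold, 1.33-fold and 1.80-fold in aged A, B and C. Every aged ratio lay below every young ratio, although Rrm2 itself overlapped between the groups. The mean log2 ratio was 2.66 ± 0.722 in young and 0.70 ± 0.254 in aged macrophages (SD, n = 3 each), a difference of -1.95. An exact two-sided permutation test gave p = 0.1, the smallest that 3 against 3 samples allow, and 0.3 after Benjamini-Hochberg adjustment over the 6 ratios computed. The ratio of Rrm2 to Rrm1 differed by 0.07 on the log2 scale with overlapping groups (exact permutation p = 0.9). The coding sequences of Rrm2 and Rrm2b share 75.1% identity over 941 aligned bases.

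**Figure D2:**
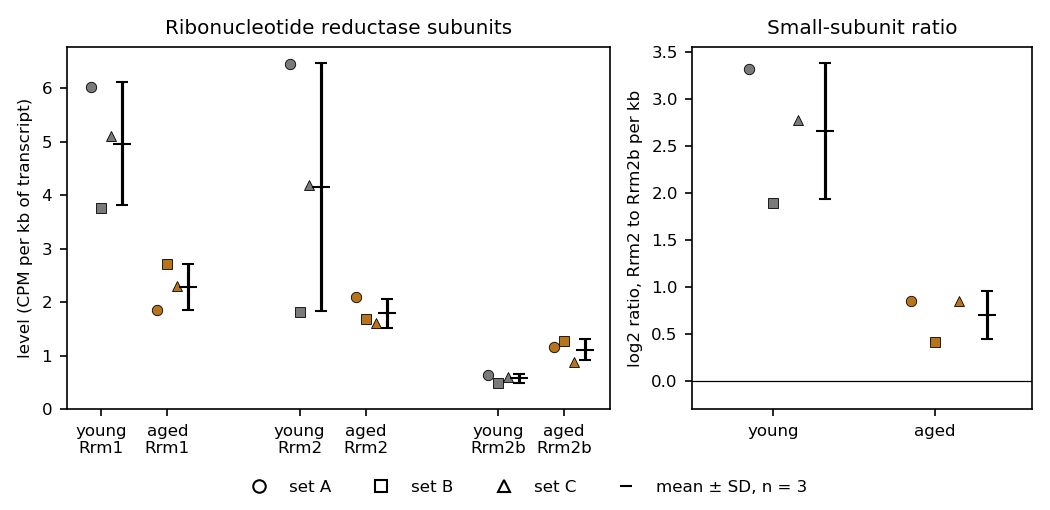
Left, levels of the 3 ribonucleotide reductase subunits per sample, in CPM per kb of transcript. Right, the log2 ratio of Rrm2 to Rrm2b counts per kb in each sample, where 0 means equal levels. Bars are mean ± SD of 3 samples, and the aged ratios of 0.85, 0.41 and 0.85 all sit below the lowest young ratio of 1.89.

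Tyms, thymidylate synthase, methylates dUMP to dTMP with a folate cofactor and lies on chr5:30058202-30073617 (minus strand). Its level was 10.3, 7.74 and 9.45 CPM in the young samples and 3.15, 3.25 and 4.94 CPM in the aged samples. The groups were apart, with aged C the nearest to the young range. The mean fell from 9.16 ± 1.30 to 3.78 ± 1.01 CPM (SD, n = 3 each), with a log2 fold change of -1.27 (SE 0.27, edgeR adjusted p = 0.0151).

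Tk1, the cytosolic thymidine kinase whose protein is restricted to S and G2 phase, showed the largest difference among the 9 genes. It lies on chr11:117815526-117826092 (minus strand), where the opposite strand holds Afmid, at 13 to 33 counts. The level of Tk1 was 13.6, 7.39 and 13.1 CPM in young A, B and C and 1.61, 3.69 and 2.72 CPM in aged A, B and C. The aged values rest on 23, 58 and 44 counts. Even the lowest young sample, young B, lay above the highest aged sample, aged B. The mean fell from 11.4 ± 3.46 to 2.67 ± 1.04 CPM (SD, n = 3 each), and the log2 fold change was -2.08 (SE 0.35, edgeR adjusted p = 0.00738). Only 0.455% of the genes tested had a lower log2 fold change. With the counts of Afmid added, its log2 fold change was -1.70.

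Dut, dUTPase, splits dUTP so that uracil is not built into DNA, and its product dUMP feeds thymidylate synthase. It lies on chr2:125247190-125258608 (plus strand). Its level was 9.29, 5.93 and 9.12 CPM in the young samples and 1.54, 2.99 and 2.29 CPM in the aged samples. The aged values rest on 22, 47 and 37 counts. The groups were apart, with young B again the lowest young sample and aged B the highest aged one. The mean fell from 8.11 ± 1.90 to 2.27 ± 0.726 CPM (SD, n = 3 each), with a log2 fold change of -1.83 (SE 0.32, edgeR adjusted p = 0.00837).

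Dctpp1, dCTP pyrophosphatase 1, hydrolyses dCTP and modified cytosine nucleotides and lies on chr7:127256959-127260709 (minus strand). Its level was 11.1, 9.09 and 14.4 CPM in the young samples and 3.64, 4.52 and 2.84 CPM in the aged samples. The lowest young value was above the highest aged value. The mean fell from 11.5 ± 2.68 to 3.67 ± 0.841 CPM (SD, n = 3 each), with a log2 fold change of -1.65 (SE 0.28, edgeR adjusted p = 0.00709). Without young C, edgeR's adjusted p was 0.0516 for Dctpp1, 0.0506 for Tk1, 0.0547 for Dut and 0.0762 for Tyms, at log2 fold changes of -1.46, -1.97, -1.74 and -1.25. Each of these genes was called in the other 5 fits that left out a sample.

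Dck, deoxycytidine kinase, starts the salvage of deoxycytidine, deoxyadenosine and deoxyguanosine and is not tied to S phase. It lies on chr5:88764996-88783281 (plus strand). Its level was 47.6, 58.3 and 61.7 CPM in the young samples and 29.2, 34.5 and 45.4 CPM in the aged samples. The groups were apart by a narrow margin, between young A and aged C. Young samples averaged 55.9 ± 7.34 and aged samples 36.4 ± 8.25 CPM (SD, n = 3 each), and the log2 fold change of -0.62 (SE 0.20) missed edgeR's threshold (adjusted p = 0.0544). DESeq2 and limma-voom gave adjusted p = 0.0378 and 0.0322. It was called in 4 of 7 other settings and in 1 of the 6 fits that left out a sample, where edgeR's adjusted p ranged from 0.0321 to 0.192.

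Samhd1, the dNTP triphosphohydrolase, was the most abundant of the 9 genes and lies on chr2:157097533-157135265 (minus strand). Its level was 173, 251 and 194 CPM in the young samples and 289, 133 and 194 CPM in the aged samples. The aged samples held both the highest and the lowest value, so the groups overlapped fully. Young samples averaged 206 ± 40.4 and aged samples 205 ± 78.7 CPM (SD, n = 3 each), with a log2 fold change of -0.01 (SE 0.27, edgeR adjusted p = 0.987). The aged coefficient of variation was 38.4% at 2081 to 4121 counts, where counting error alone would give 1.79%. Leaving out 1 sample at a time moved the log2 fold change between -0.34 and 0.24. The ratio of Samhd1 to Rrm1 RNA per kb was 7.31, 17.0 and 9.66 in young A, B and C and 39.4, 12.4 and 21.4 in aged A, B and C. These ratios overlapped, because aged B lay below young B (log2 difference 1.04, exact two-sided permutation p = 0.2, adjusted p = 0.3 over 6 ratios).

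**Figure D3:**
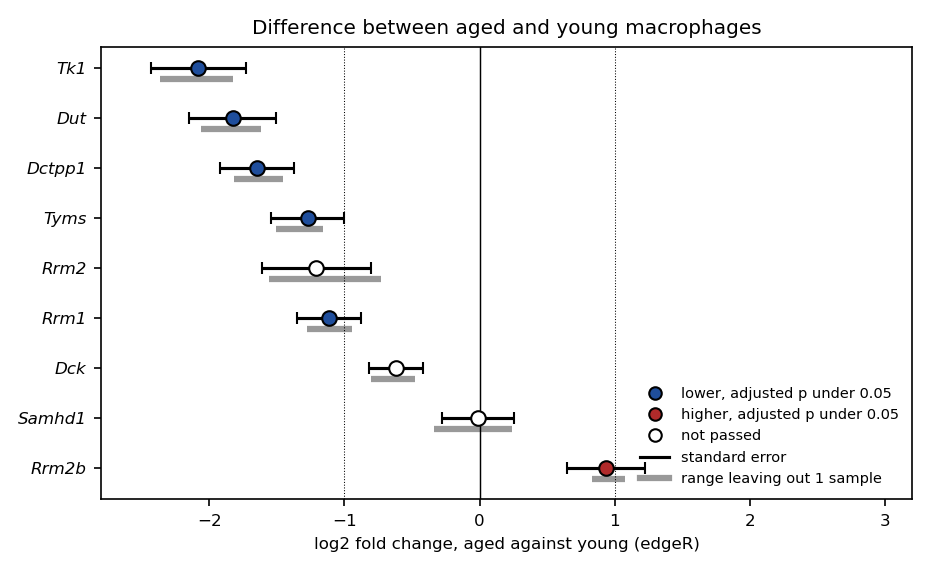
Log2 fold change of each enzyme in aged against young macrophages, with its standard error from edgeR. Filled points passed an adjusted p of 0.05 and grey bars span the 6 fits that each left out 1 sample. Tk1 stands lowest at -2.08 and Rrm2b highest at 0.93, and among the grey bars that of Samhd1 alone crosses 0.

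Compared per length of transcript, the young order of levels ran from Samhd1 at 52.5 CPM per kb through Dck at 18.2, Dctpp1 at 17.0, Dut at 7.95, Tk1 at 7.90, Rrm1 at 4.97, Rrm2 at 4.15 and Tyms at 2.90 to Rrm2b at 0.580 CPM per kb. Samhd1 was apart from Dck, Dctpp1 from Dut, and Tyms from Rrm2b in the ranges of the 3 samples, while the other neighbours overlapped. In aged macrophages Samhd1 at 52.2 and Dck at 11.8 CPM per kb again led, followed by Dctpp1 at 5.43 and then by Rrm1, Dut, Tk1 and Rrm2, whose neighbours among these 4 overlapped, between 2.29 and 1.80 CPM per kb. Tyms at 1.20 CPM per kb was apart from Rrm2, and overlapped with Rrm2b at 1.11 CPM per kb, whereas in young samples Tyms and Rrm2b were apart. By group mean, Samhd1 and Dck led, and Rrm2b came last, in both groups. The last place of Rrm2b did not hold in aged A and aged B, where Tyms was lower.

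Young B was the lowest young sample in 7 of the 9 members, and in 37.9% of all genes tested. Young A was the highest in 6 members, and in 36.7% of all genes. Among aged samples, aged A was lowest in 5 members and aged B highest in 5, against 37.1% and 35.5% of all genes. Samhd1 ran the other way, with its young maximum in young B and its aged minimum in aged B.

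**Figure D4:**
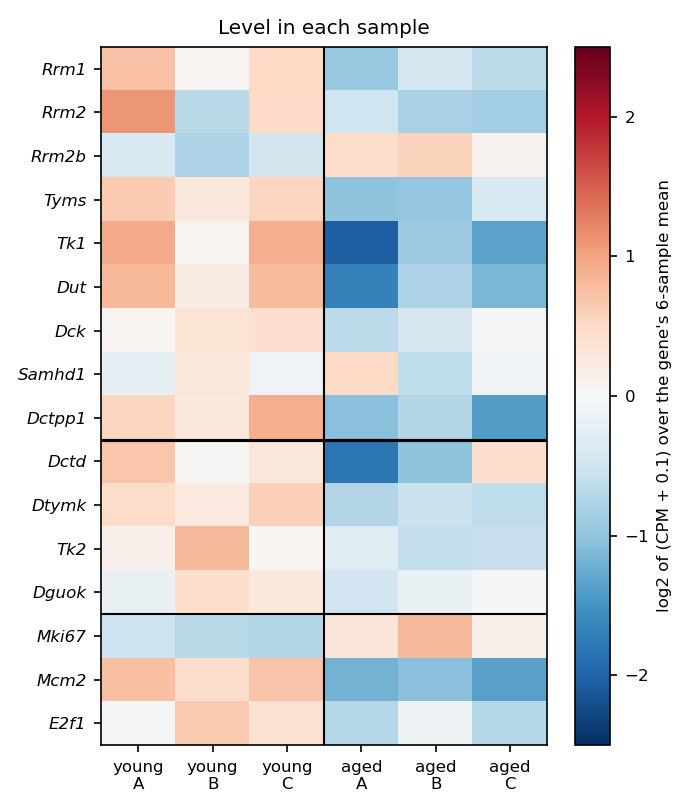
Level of each gene in each sample as the log2 of CPM over the gene's mean of 6 samples, after a small constant is added to both. The upper block holds the 9 enzymes, the middle block related enzymes, and the lower block the proliferation genes Mki67 and Mcm2 with the regulator E2f1. Red is above and blue below the gene's mean. Rrm2b and Mki67 are the rows that are blue in all young and red in all aged samples.

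The start regions of members that move together are of interest because many S-phase genes are bound by E2F, NF-Y and CHR-binding complexes. RefSeq (GRCm38.p6) gave a 300-base window around its own annotated start of 8 of the 9 genes. That start differs from the GENCODE start of the gene as given above by 8 to 169 bases in 6 of them, is the same in Rrm1, and lies 325 bases inside the gene in Dut, whose window does not hold the GENCODE start. The windows were searched on both strands for CCAAT (the NF-Y core), for TTTCGCGC, TTTGGCGC, TTTCCCGC and TTTGCCGC (E2F forms), for TTTGAA (the CHR element) and for the core of the interferon-stimulated response element. No pair of these motifs overlapped in the member windows. CCAAT was found in 3 of 8 member windows, Rrm1, Rrm2 and Dctpp1, and in 37.4% of all 32851 windows. TTTGAA was found in 1, that of Dck, and in 17.9% of all. The E2F forms were found in 0 of 8 and in 2.26% of all windows, and the interferon-stimulated response element in 0 of 8 and in 3.44%. The member shares are near the background. At background shares as small as 2.26% and 3.44%, 0 of 8 windows does not show that members lack such sites. Only exact strings were searched, so a window without a match may still hold a variant. The 3 windows that hold CCAAT are shown together with that of Tk1, which fell most and holds none of these motifs. Capitals mark CCAAT, or ATTGG where it lies on the opposite strand, and each is read 5′ to 3′ on the gene's strand.
Rrm1 (chr7:102441445-102441744, plus strand): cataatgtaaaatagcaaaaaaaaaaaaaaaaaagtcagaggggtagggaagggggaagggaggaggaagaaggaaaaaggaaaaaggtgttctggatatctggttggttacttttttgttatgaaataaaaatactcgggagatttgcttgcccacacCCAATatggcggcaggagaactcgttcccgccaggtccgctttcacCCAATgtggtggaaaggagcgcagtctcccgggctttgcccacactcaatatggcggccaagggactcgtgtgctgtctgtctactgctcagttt
Rrm2 (chr12:24708004-24708303, plus strand): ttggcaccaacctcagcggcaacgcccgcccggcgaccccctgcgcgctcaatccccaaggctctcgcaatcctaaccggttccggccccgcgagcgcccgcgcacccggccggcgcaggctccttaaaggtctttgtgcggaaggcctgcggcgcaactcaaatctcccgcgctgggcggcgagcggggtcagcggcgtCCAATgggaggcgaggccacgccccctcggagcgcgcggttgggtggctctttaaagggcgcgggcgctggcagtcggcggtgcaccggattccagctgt
Dctpp1 (chr7:127260618-127260917, minus strand): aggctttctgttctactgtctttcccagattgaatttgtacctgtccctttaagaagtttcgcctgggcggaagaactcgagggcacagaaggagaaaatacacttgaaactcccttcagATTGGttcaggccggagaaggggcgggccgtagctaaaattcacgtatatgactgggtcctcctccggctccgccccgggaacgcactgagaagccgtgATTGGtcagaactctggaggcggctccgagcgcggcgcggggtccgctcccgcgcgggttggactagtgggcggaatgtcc
Tk1 (chr11:117825965-117826264, minus strand): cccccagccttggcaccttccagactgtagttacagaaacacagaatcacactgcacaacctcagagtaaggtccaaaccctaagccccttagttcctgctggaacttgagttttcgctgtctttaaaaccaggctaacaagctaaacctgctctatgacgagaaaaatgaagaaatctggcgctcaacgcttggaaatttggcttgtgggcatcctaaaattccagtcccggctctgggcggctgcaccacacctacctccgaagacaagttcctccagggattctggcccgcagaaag

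In Rrm1 the CCAAT matches began at -91 and -45 from the RefSeq start, in Rrm2 at -50, and in Dctpp1 at -130 and -31. From the GENCODE start they began at -37 in Rrm2 and at -88 and 11 in Dctpp1, the latter inside the gene. A match is a string of letters and does not show that a factor binds there.

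Of 65 other genes listed for nucleotide metabolism, 62 were tested. 16 were called lower and 5 higher (edgeR), with a median log2 fold change of -0.40. Over all genes 7.97% were called lower and 9.73% higher, so the 5 higher calls are no more than the background share. Without young C these counts were 0 lower and 1 higher, with 20 lower and 6 higher at an unadjusted p under 0.05, and without aged C they were 1 and 2. Without young B they were 5 lower and 2 higher.

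Among 13 enzymes next to the members, mostly deoxynucleotide and nucleotide kinases, 5 were called, all lower by edgeR, beside 7.97% of all genes. The log2 fold change was negative in 12 of the 13. Dtymk, thymidylate kinase, which phosphorylates the dTMP made by Tyms and Tk1, was 18.9, 16.1 and 20.6 CPM in young and 8.20, 9.36 and 8.71 CPM in aged samples. Its groups were well apart (log2 fold change -1.08, SE 0.19, edgeR adjusted p = 0.00878). Nme4, a mitochondrial nucleoside diphosphate kinase, fell by 1.67 on the log2 scale (edgeR adjusted p = 0.0457), from 13.3 ± 2.71 to 4.13 ± 3.35 CPM. Tk2, the mitochondrial thymidine kinase, was 13.6, 21.9 and 12.9 CPM in young and 10.2, 8.09 and 8.34 CPM in aged samples. Its log2 fold change was -0.87 (edgeR adjusted p = 0.0392), a call that 5 of the 6 fits without 1 sample lost. The ratio of Tk1 to Tk2 per kb overlapped between groups (log2 difference -1.27, exact permutation p = 0.2). Dguok, the mitochondrial deoxyguanosine kinase, did not pass (log2 fold change -0.41, adjusted p = 0.212 by edgeR). Dctd, dCMP deaminase, did not pass either at 0.140 to 1.27 CPM (log2 fold change -0.94, edgeR adjusted p = 0.34).

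Folate enzymes provide the one-carbon units that thymidylate and purines need, and of 6 tested 2 were lower and 1 higher. The shares over all genes were 7.97% lower and 9.73% higher. Mthfd1, the cytosolic trifunctional enzyme, and Shmt2, mitochondrial serine hydroxymethyltransferase, had log2 fold changes of -1.23 and -0.89 (edgeR adjusted p = 0.0162 and 0.0235). Mthfd2, the mitochondrial methylenetetrahydrofolate dehydrogenase, rose from 22.4 ± 6.00 to 53.3 ± 12.4 CPM (log2 fold change 1.25, edgeR adjusted p = 0.0114).

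De novo purine synthesis had 4 genes lower and 1 higher of 12 tested, beside 7.97% of all genes called lower and 9.73% called higher. Gart and Paics, multifunctional enzymes of that route, had log2 fold changes of -0.92 and -0.83, and Impdh1, which commits IMP to guanine nucleotides, of 0.66 (edgeR adjusted p = 0.0221, 0.0142 and 0.0322). In de novo pyrimidine synthesis 1 of 5 was lower: Dhodh, the mitochondrial dihydroorotate dehydrogenase, with a log2 fold change of -1.32 (edgeR adjusted p = 0.0122). In salvage and transport 2 of 9 were lower and 1 higher. These were Slc29a1, an equilibrative nucleoside transporter, at -0.78, Hprt, which salvages hypoxanthine and guanine, at -0.72, and Uck2, a uridine-cytidine kinase, at 0.98 (edgeR adjusted p = 0.0137, 0.0172 and 0.0159).

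Breakdown enzymes had 1 gene lower and 2 higher of 11 tested, beside 7.97% of all genes called lower and 9.73% called higher. Upp1, uridine phosphorylase, was 75.0, 80.1 and 75.8 CPM in young and 361, 221 and 296 CPM in aged samples. It rose with a log2 fold change of 1.93 (SE 0.20, edgeR adjusted p = 0.00127), in the direction opposite to the thymidylate enzymes. Nt5e, the surface nucleotidase CD73, had a log2 fold change of 0.70, and Nt5c3b, a cytosolic nucleotidase, of -0.99 (edgeR adjusted p = 0.0316 and 0.0351). Among 6 genes that clean the nucleotide pool, Nudt5, an ADP-sugar hydrolase, was the single gene called, lower at -0.81 (edgeR adjusted p = 0.0263).

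**Figure D5:**
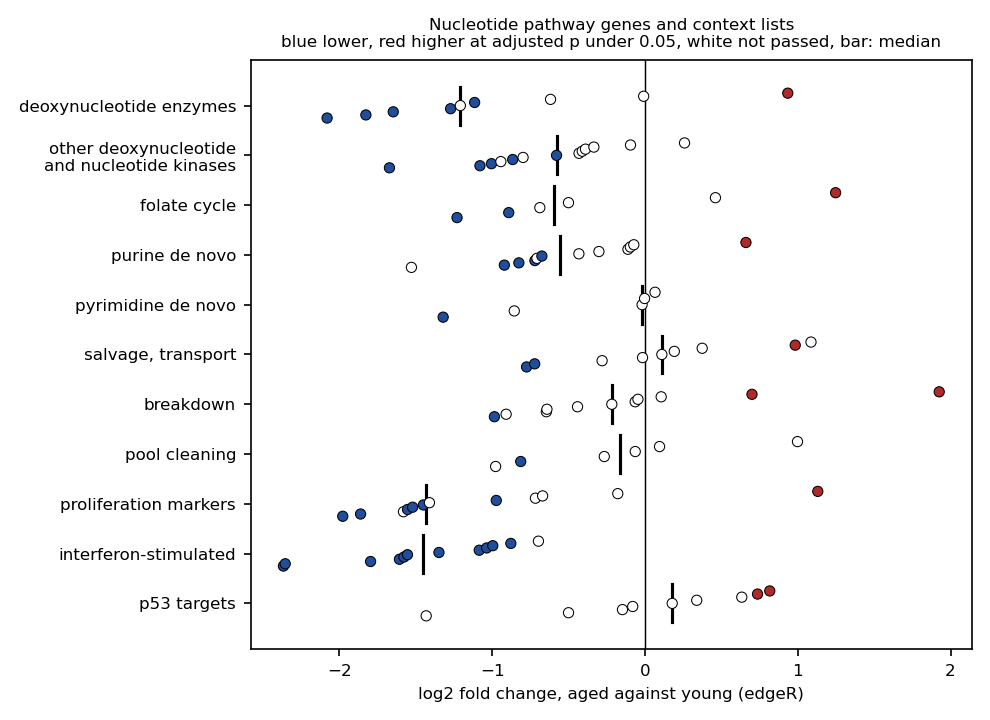
Log2 fold change, aged against young, of every tested gene in the 9 enzymes, 7 groups of other nucleotide genes and 3 context lists. Each point is 1 gene, blue or red where it passed an adjusted p of 0.05, and the bar is the group's median, at -1.21 for the 9 enzymes and -1.45 for the interferon-stimulated genes.

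Proliferation genes were set beside the members, since most of the 9 enzymes are made in S phase. Of 12 tested, 6 were lower and 1 higher, beside 7.97% of all genes called lower and 9.73% called higher. A single higher call among 12 is no more than the background share. In the log2 fold changes of these 12 genes, the median was -1.43. Mcm2, part of the replicative helicase, was 16.9, 13.6 and 16.6 CPM in young and 4.34, 4.78 and 3.83 CPM in aged samples (log2 fold change -1.86, edgeR adjusted p = 0.00188), and Birc5, survivin, fell by 1.98 (edgeR adjusted p = 0.0371). Mki67, which encodes the cycling-cell antigen Ki-67, went the other way. It was 1.94, 1.70 and 1.65 CPM in young and 3.50, 5.03 and 3.09 CPM in aged samples, with every aged sample above every young one (log2 fold change 1.13, edgeR adjusted p = 0.0412). The ratio of Rrm2 to Mki67 per kb was 33.1, 10.7 and 25.1 in young and 6.04, 3.38 and 5.22 in aged samples. Its groups were apart, with a log2 difference of -2.13 (exact two-sided permutation p = 0.1, 0.3 adjusted over 6 ratios). Without young C and without aged C, 1 proliferation gene in place of 6 was called lower.

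Of 11 tested regulators that act on ribonucleotide reductase or Samhd1, 1 was called. Of all genes, 17.7% were called in either direction and 7.97% lower, so this count is near the background share. The called gene was E2f1, which drives S-phase genes and was lower, with a log2 fold change of -0.86 (edgeR adjusted p = 0.0359). Rrm2b is a p53 target, and among 9 other p53 targets 2 were called, both higher, beside 9.73% of all genes called higher. 5 of the 9 had a positive and 4 a negative log2 fold change. Mdm2, the ligase that degrades p53, and Sesn2, a stress-induced sestrin, had log2 fold changes of 0.82 and 0.74 (edgeR adjusted p = 0.0444 and 0.0269), and the list's median was 0.18. Neither young B, young C nor aged C could be left out without losing both calls. Samhd1 is inducible by interferon in some cells. Of 12 interferon-stimulated genes 11 were called lower, beside 7.97% of all genes. Among them were Mx2 and Ifit3, antiviral effectors, at -2.37 and -2.36 (edgeR adjusted p = 0.0159 and 0.00709). The log2 fold change of Samhd1 was -0.01. Without young C, 1 of these 12 was called lower, and without young B 4.

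The sorted cells carried their defining markers. Ptprc, Itgam, Adgre1, Fcgr1, Csf1r, Cd68 and Lyz2 were each at 2454 counts or more in every sample. Their levels were not equal between the groups. Itgam (CD11b) was called higher in aged macrophages, at 334 to 402 CPM in young and 702 to 822 CPM in aged samples (log2 fold change 0.99, edgeR adjusted p = 0.00735). Adgre1 (F4/80) was called lower, at 289.6 to 357 CPM in young and 172 to 241 CPM in aged samples (log2 fold change -0.69, edgeR adjusted p = 0.0292). The part of this shift in the members' differences was not tested. Totals ran from 15270103 to 17927483 expected counts per sample. After TMM scaling of these totals, 1 count stood for 0.0553 to 0.0701 CPM. Markers of other cell types were summed in each sample. The summed level of 11 neutrophil markers was 579 to 1026.5 CPM in young and 790 to 1431 CPM in aged samples, ranges that overlap. Of these 11, 4 were called higher, beside 9.73% of all genes. The log2 fold change was positive in 10 of them, with a median of 0.48. In 3, every aged sample lay above every young sample, beside 19.2% of all genes. The sum of 9 keratinocyte markers was 0.727 to 1.06 CPM in young and 1.73 to 175 CPM in aged samples, with the maximum in aged B, and the 1 keratinocyte marker tested, Krt14, was called higher on 1259 counts in aged B beside 11 and 14 in the other aged samples. Krt1 and Dsp were at 0 in all young samples. The sums of 7 fibroblast markers (23.6 to 41.1 CPM in young, 13.2 to 120 CPM in aged) and of 6 dendritic cell markers (16.4 to 55.0 and 30.3 to 93.9 CPM) overlapped, as did that of 7 lymphocyte markers (1.39 to 2.49 and 1.98 to 3.85 CPM). Without aged B, 5 members were still called lower and 0 higher, with 1 higher at an unadjusted p under 0.05. The part of neutrophil transcripts in the members' differences was not tested.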

How the data were processed

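RNA was sequenced from F4/80+ CD64+ cells sorted from Day 3 wounds, in 3 young and 3 aged samples (SMART-Seq v4, paired-end). The authors aligned reads with STAR 2.7.3a to mm10 and quantified Ensembl transcripts (release 102) in Partek Flow, per the submitters' processing notes and the deposited details. The authors deposited expected counts per gene, not normalised, for genes with a total of at least 10. Use of strand is not given in the sources used here, so overlapping antisense genes cannot be separated. A second deposited table, with the authors' scaled values, fold changes and p-values, was not used.

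The planned design had named raw counts, and the expected counts found were rounded to whole numbers for it. edgeR 4.0.16 (R 4.3.3) was run with TMM, filterByExpr and the quasi-likelihood test. P-values of the 11878 tested genes were adjusted by Benjamini-Hochberg, and genes were called at an adjusted p under 0.05. CPM are counts relative to the TMM-scaled library total. Ratios are log2 of counts plus 0.5 per kb of the GENCODE M21 transcript with the longest coding sequence, tested by exact permutation. Near-identical copies were sought by aligning coding sequences. Besides that of Rrm2b, similar processed pseudogenes were found for Rrm2, Tyms, Tk1, Dut, Dck and Dctpp1. Among them were Tyms-ps (93.6% identity over 935 bases) and Gm7653 for Dctpp1 (91.2% over 513 bases). Apart from Gm8616 these pseudogenes had no counts deposited, so reads shared with them could not be examined. Alternatives were DESeq2 1.42.0, limma-voom 3.58.1 with sample quality weights, DESeq2 size factors, other filters, the set letter as a block, leaving out each sample and, chosen after seeing the data, adding overlapping and similar genes to Rrm2b and Tk1. The fit was tested on simulated data. The members and gene lists were chosen with earlier results of these data known. All members are named, with up to 2 called genes per direction and list, the largest by fold change, and Dctd, Dtymk, Tk2, Dguok and Mki67, apart from 1 gene that is not reported here. Marker genes, copies and overlapping genes are named as such. Gene coordinates are those of GENCODE M21, on mm10, and start windows those of RefSeq.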

Additional observations from a re-analysis of the deposited data

How the results depend on the processing

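Tk1, Dut, Dctpp1, Tyms and Rrm1 were called lower under all 7 settings that kept the 6 samples. limma-voom called 3646 genes in all against 2103 by edgeR. Rrm2b missed the threshold without the filter on low counts (log2 fold change 0.93), with the set letter as a replicate block (0.93) and with overlapping genes added (0.64), so that 0 members were called higher there, with 1, 1 and 0 at an unadjusted p under 0.05. Under that block Dck passed (-0.63), as it did with at least 10 counts in every sample (-0.63), with DESeq2 (-0.61) and with limma-voom (-0.57). Rrm2 passed with DESeq2 (-1.19) and limma-voom (-1.15). Samhd1 took the other sign with DESeq2 size factors (0.00037) and with DESeq2 (0.0035). Same-letter samples had correlations of 0.181, -0.0206 and 0.115 in their deviations from the group means, so the letters were not taken as pairs, and the block moved the members called lower from 5 to 6.

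Over the 6 fits that left out 1 sample, log2 fold changes ranged from -1.28 to -0.95 (Rrm1), -1.56 to -0.73 (Rrm2), 0.83 to 1.08 (Rrm2b), -1.51 to -1.16 (Tyms), -2.37 to -1.82 (Tk1), -2.06 to -1.61 (Dut), -0.80 to -0.48 (Dck), -0.34 to 0.24 (Samhd1) and -1.81 to -1.46 (Dctpp1). The log2 ratio of Rrm2 to Rrm1 ranged from -0.24 to 0.33 and was reversed without young B (-0.24) and without aged A (-0.19). In these 6 fits 218 to 2702 genes were called, 213 to 1503 of them by more than 2-fold, with 0 to 6 members lower, 0 to 6 lower by more than 2-fold and 0 members higher, though 1 was higher at an unadjusted p under 0.05 in each fit. Other nucleotide genes numbered 0 to 18 lower and 1 to 5 higher. The causes of these shifts were not tested. Fits with 5 samples have fewer degrees of freedom.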
